A study of Mus musculus with 30 samples.

Results

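Brain endothelial cells (ECs) with stabilized beta-catenin were compared with WT brain ECs after 8 days in culture. The comparison uses the RNA-seq libraries of beta-catenin stabilized replicates 3 and 4 and of WT replicates 5 and 6. These are the cultures that were isolated by the procedure the study calls method B and were sequenced for 36 cycles per read, and they make up 4 of the 14 RNA-seq libraries analysed here, 10 of which come from cultures. WT replicates 3 and 4, also isolated by method B but sequenced for 150 cycles, were left out of the comparison. The isolation method is that of the study's methods section, whereas a figure legend of the study gives method B to 1 pair of WT cultures alone, the pair sequenced elsewhere. If WT replicates 5 and 6 were isolated by method A, isolation method and genotype cannot be told apart. The WT mice were Ctnnb1flex3/+;Tie2-GFP and the stabilized mice Ctnnb1flex3/+;Pdgfb-CreER;Tie2-GFP. Both groups therefore carried 1 Ctnnb1 allele with loxP sites around exon 3 and the Tie2-GFP transgene, which marks ECs, and both received the Cre inducer 4-hydroxytamoxifen (4HT) as pups. They differ by the Pdgfb-CreER transgene, in which the Pdgfb promoter drives an inducible Cre recombinase in ECs. The animals are labelled adult males. Brains of several mice were pooled for an isolation, puromycin was used to kill cells that lack the efflux pump P-glycoprotein, and the replicates are wells. Mouse pool, isolation and genotype cannot be told apart, and the p-values measure only the spread between wells. The question was what activating beta-catenin signaling before culture does to the transcripts of cultured brain ECs.

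Beta-catenin, the product of Ctnnb1, joins cadherins to the cytoskeleton and is also the effector of canonical Wnt signaling. Without a Wnt signal, a complex of AXIN, APC, CK1 and GSK3 phosphorylates its amino-terminal part and marks it for degradation. With a signal, beta-catenin accumulates, enters the nucleus and activates transcription with factors of the LEF/TCF family. In brain ECs this pathway is known for building and maintaining the blood-brain barrier (BBB), and Axin2, which encodes a part of the destruction complex, is its usual transcriptional reporter.

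The allele works by removing exon 3 of Ctnnb1, whose sequence is shown because it holds the phosphorylated residues. In GRCm38 the exon lies at chr9:120950522-120950749 on the plus strand, between exon 2 (120950173 to 120950233) and exon 4 (120950894 to 120951147). It is coding sequence throughout and has 228 bases, or 76 codons, so its loss keeps the reading frame. The capitals mark the codons of serine 33, serine 37, threonine 41 and serine 45, which CK1 and GSK3 phosphorylate.
Ctnnb1 exon 3: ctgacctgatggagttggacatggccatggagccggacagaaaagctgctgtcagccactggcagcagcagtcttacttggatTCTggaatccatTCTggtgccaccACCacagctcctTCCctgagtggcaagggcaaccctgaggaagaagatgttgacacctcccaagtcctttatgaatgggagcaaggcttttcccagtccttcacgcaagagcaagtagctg
Of the 15 annotated Ctnnb1 transcripts, 0 join exon 2 to exon 4. Transcripts without exon 3 are therefore not counted apart in these files, and the deletion was not measured here. The study itself reported reads joining exon 2 to exon 4 in every stabilized culture and in no WT culture.

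The 4 libraries held 43240857 to 65623544 estimated counts. Log2 values correlated across genes at 0.992 between the WT wells, 0.993 between the stabilized wells and 0.973 to 0.981 between the groups. The record of stabilized replicate 4 names genomic DNA as its molecule, and its title and protocol were followed. All 4 libraries held 2805 to 3822 counts of the X-inactivation transcript Xist and at most 11 counts of any of the Y-linked genes Ddx3y, Eif2s3y, Kdm5d and Uty, which goes against the label of male animals in both groups alike. WT replicates 3 and 4 held 0 counts of Xist and 2940 to 3328 counts of Ddx3y. The 7SL RNA gene Rn7s1 took 40.9% to 45.5% of the deposited TPM in the 4 libraries. Levels are therefore given as coding TPM, which is TPM rescaled to a sum of 1000000 over the protein-coding genes, whereas fold changes come from the counts. A gene is said to have passed the test at an adjusted p under 0.05 (edgeR's quasi-likelihood test). It is said to be called when, in addition, it changed more than 2-fold and had a deposited TPM of at least 5 in both libraries of the higher group. Protein-coding genes held 37.34% to 43.56% of the deposited TPM in the 4 libraries, so this minimum corresponds to more than 5 coding TPM.

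Ctnnb1 itself had 567 and 625 coding TPM in the WT wells and 770 and 819 in the stabilized wells. Both pairs lay inside the range of the 4 other WT cultures, from 378 to 1649 coding TPM. The groups did not overlap, which held for 67.7% of all genes tested, and the difference was small (log2 fold change 0.25 ± 0.05 (SE), adjusted p = 0.0122). Without stabilized replicate 3 or 4 it was no longer past the test, with adjusted p = 0.0930 and 0.112. Between the groups of method A, Ctnnb1 went the other way (-0.41 ± 0.08, adjusted p = 0.00557). The difference of its change between the methods passed the test (0.68 ± 0.09, adjusted p = 0.000519). Pdgfb, whose promoter drives the Cre and which encodes the growth factor that recruits pericytes, rose from 274.5 and 249.8 to 405.3 and 410.8 coding TPM (log2 fold change 0.59 ± 0.05, adjusted p = 0.00116).

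Axin2 (chr11:108920349-108950783, plus strand) rose. It had 0.246 and 0.268 coding TPM in the WT wells and 2.45 and 2.73 in the stabilized wells, from 24 and 43 counts against 236 and 240. Both stabilized wells were far above both WT wells, and the log2 fold change was 2.67 ± 0.16 (adjusted p = 0.000664). The level stayed low, under the TPM minimum for a call, and under the 124 and 91.6 coding TPM of the 2 libraries of acutely isolated adult brain ECs. Among all 12847 protein-coding genes tested, 19.5% passed the test as higher and 17.6% as lower, with a median log2 fold change of -0.01.

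Of the 16 listed feedback and target genes of Wnt signaling, 13 had enough counts to be tested, 8 passed the test as higher and 1 as lower, and the median log2 fold change was 0.66. None of the 13 was called, which for so few genes is near the 1.08% of all genes called higher and is not a result about the list. The minimum for a call is on deposited TPM, so a gene over 5 coding TPM, such as Spock2, can be under it. Spock2, a secreted proteoglycan of brain ECs, rose from 2.60 and 2.80 to 6.58 and 7.71 coding TPM (log2 fold change 1.39 ± 0.11). Tnfrsf19, a receptor of the TNF family, rose from 6.56 and 6.51 to 12.7 and 12.9 coding TPM (0.96 ± 0.07). Ccnd1, the G1 cyclin D1, rose from 477 and 507 to 797 and 846 coding TPM (0.73 ± 0.07). For these genes the stabilized wells lay above the WT wells with a narrow spread inside each group. Apcdd1, a membrane-bound inhibitor of Wnt signaling, rose less, from 64.3 and 69.8 to 112 and 104 coding TPM (0.66 ± 0.07). The cytoplasmic inhibitor Nkd1 rose by 0.59 ± 0.15 and the TCF factor Tcf7 by 0.72 ± 0.21 on the log2 scale, with adjusted p = 0.0277 and 0.0399. Tcf7 had 1.41 and 1.90 coding TPM in WT and 2.43 and 3.22 in stabilized wells, so that the lower stabilized well was not far above the higher WT well. Nkd1 did not pass without stabilized replicate 3 (adjusted p = 0.116), and Tcf7 did not pass without WT replicate 5 (0.0860) or without stabilized replicate 3 or 4 (0.0684 and 0.209). Notum, a secreted enzyme that inactivates Wnt proteins, rose from 2 and 3 counts to 13 and 18 (log2 fold change 2.42 ± 0.55), and it shares 33% of its 31-base words with other genes, among them the antisense gene Notumos. It did not pass without WT replicate 6 (adjusted p = 0.0675) or without stabilized replicate 3 or 4 (0.0844 and 0.162).

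The remaining members of the list went down or were not past the test. Myc, a growth-promoting transcription factor, fell from 27.8 and 24.9 to 20.8 and 18.9 coding TPM (log2 fold change -0.43 ± 0.08, adjusted p = 0.00955), and did not pass without stabilized replicate 3 or 4 (adjusted p = 0.0605 and 0.103). Lef1, the DNA-binding partner of beta-catenin, had 21.2 and 16.6 coding TPM in WT and 15.4 and 12.9 in stabilized wells (-0.42 ± 0.14, adjusted p = 0.0570). Without WT replicate 6 the Lef1 difference was -0.58 and passed (adjusted p = 0.000724). The inhibitor Nkd2, the ubiquitin ligase Znrf3 and the transcription factor Sp5 had log2 differences of 0.20, -0.11 and -0.14 and were not past the test either, Nkd2 and Znrf3 with overlapping groups.

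**Figure D1:**
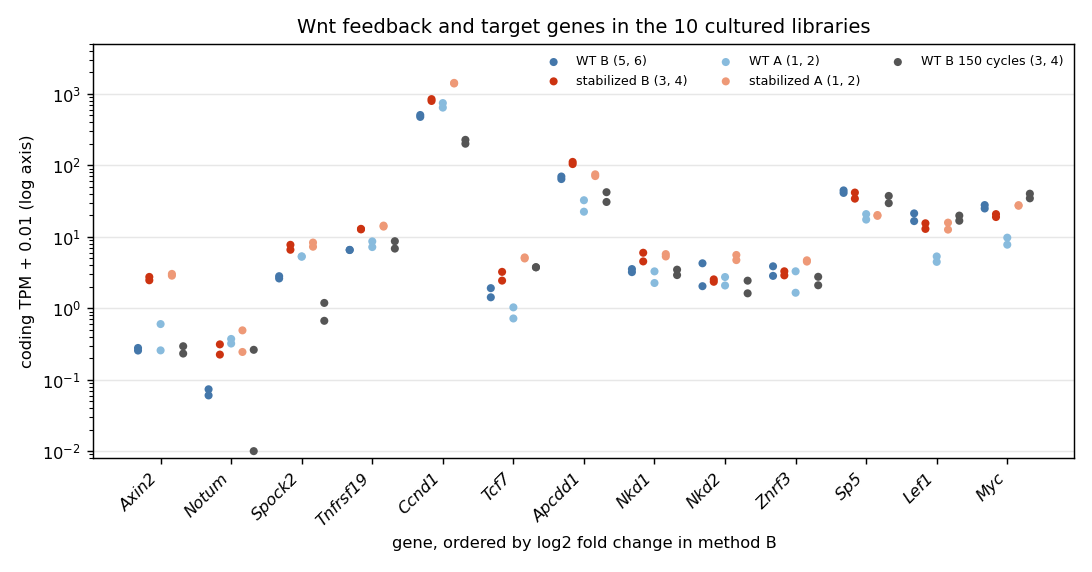
Coding TPM plus 0.01 (log axis) of the 13 tested Wnt feedback and target genes in each of the 10 cultured libraries, coloured by genotype, isolation method and read length; each point is a library. The stabilized wells of method B lie above the WT wells of method B in Axin2, Spock2, Tnfrsf19, Ccnd1 and Apcdd1, while Lef1 and Myc lie lower.

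Other parts of the pathway moved in both directions. Of 18 tested receptors and coreceptors, 3 passed as higher and 5 as lower, with a median of -0.22. The receptor Fzd6 (log2 fold change 0.63), the membrane protein Reck (0.75) and its partner Adgra2 (0.38), which together make ECs respond to Wnt7 ligands, rose. The receptors Fzd2, Ror1, Fzd7, Fzd5 and Lgr4 fell by 1.22, 1.11, 0.74, 0.51 and 0.31 on the log2 scale. Fzd4, the main Frizzled receptor of brain ECs, had a difference of 0.11 that was not past the test. Of 19 genes for the destruction complex and the nuclear partners of beta-catenin, Ctnnb1 passed as higher and Axin1, Csnk1a1, Tle1 and Tle4 passed as lower, by at most 0.32 on the log2 scale. Among 29 ligands and secreted modulators only 12 were tested. Wnt5b and the antagonist Frzb passed as higher (1.21 and 0.95), and Wnt2 and Wnt5a passed as lower (-1.56 and -0.61).

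The word CTTTGA, the core of the sequence that LEF/TCF factors bind, was searched on both strands (TCAAAG on the other) in RefSeq promoter windows from 250 bases before to 50 bases after the start site (GRCm38.p6). It was present in at least 1 window of 5 of the 10 listed Wnt genes with a window in the table, of 24 of 102 genes called higher (23.5%), of 5 of 19 called lower (26.3%) and of 1416 of the 10027 tested genes with a window (14.1%). The windows of Spock2 and Axin2, the target genes with the largest increases apart from Notum, are shown because one holds the word, in capitals, and the other does not.
Spock2, chr10:60106007-60106306, plus strand: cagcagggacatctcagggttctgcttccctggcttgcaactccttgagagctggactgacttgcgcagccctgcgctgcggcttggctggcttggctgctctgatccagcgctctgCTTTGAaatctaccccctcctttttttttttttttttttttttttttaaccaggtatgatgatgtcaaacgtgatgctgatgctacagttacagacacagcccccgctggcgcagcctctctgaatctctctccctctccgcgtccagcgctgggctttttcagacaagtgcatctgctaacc
Axin2, chr11:108920099-108920398, plus strand: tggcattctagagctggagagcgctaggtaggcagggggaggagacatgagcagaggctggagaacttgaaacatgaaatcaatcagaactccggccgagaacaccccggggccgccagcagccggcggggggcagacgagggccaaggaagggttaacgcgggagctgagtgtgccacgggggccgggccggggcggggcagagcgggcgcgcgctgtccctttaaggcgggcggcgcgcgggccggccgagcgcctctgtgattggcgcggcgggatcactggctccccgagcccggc
A match of these letters is a description of the window, and its absence says nothing of binding elsewhere.

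Across all genes, 139 were called higher (1.08%) and 37 lower (0.288%), or 1.37% together. Most of these changes were of modest size, with a median fold change of 2.47 among the genes called higher and 2.28 among those called lower. Another 562 genes passed the test with more than a 2-fold change but were under the TPM minimum, as Axin2 was. The groups did not overlap in any of the 176 called genes, nor in 67.7% of all genes tested.

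**Figure D2:**
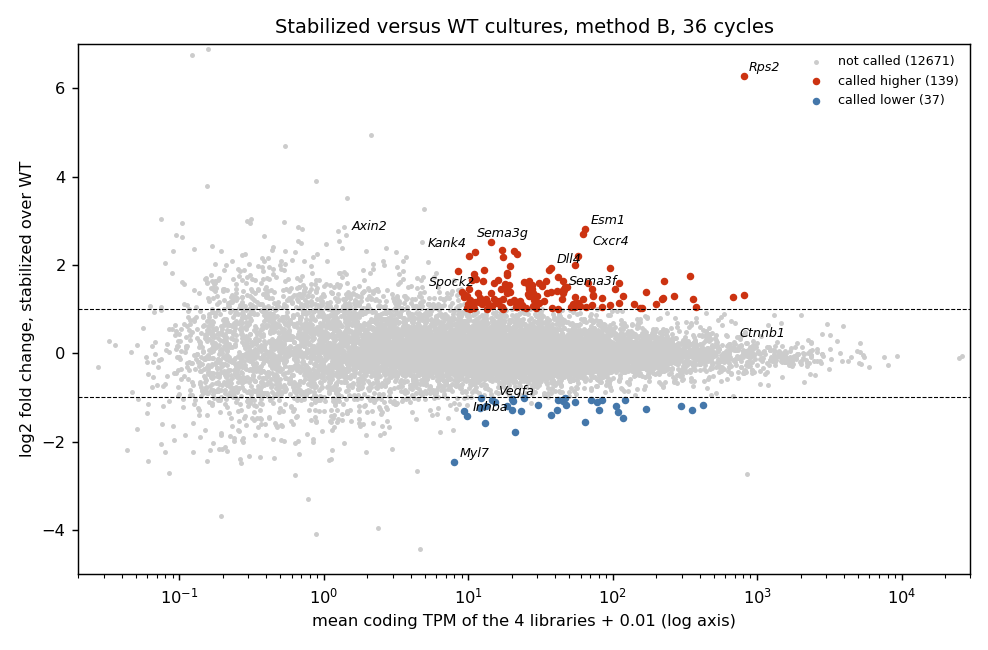
Log2 fold change of stabilized over WT wells against the mean coding TPM of the 4 libraries plus 0.01 (log axis) for the 12847 tested genes, with the 139 genes called higher, the 37 called lower and the 12671 not called in separate colours; 5 genes lie outside the axes. Called genes sit mostly between 1 and 3 in absolute log2 fold change, Rps2 stands alone above 6, and Axin2 lies at low abundance among the genes not called.

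Apart from Rps2, the called genes with the largest increases were Esm1 and Cxcr4, which belong to a list of genes that mark tip cells, the leading cells of angiogenic sprouts, and the fenestrated vessels outside the barrier. Of the 12 tested genes of this list, 7 passed as higher and 3 as lower, 4 were called higher, and the median log2 fold change was 0.76. Among all genes tested, 19.5% passed as higher and 17.6% as lower, and 1.08% were called higher and 0.288% lower. The counts of the lists below are to be read beside these shares. Esm1, which encodes the proteoglycan endocan, had 14.7 and 16.7 coding TPM in WT wells and 113 and 114 in stabilized wells. Cxcr4, the receptor of the chemokine CXCL12, had 14.4 and 19.3 coding TPM in WT wells and 95.9 and 120 in stabilized wells. Esm1 was 7.01-fold and Cxcr4 6.50-fold higher, far beyond the spread inside each group (log2 fold change 2.81 ± 0.08 and 2.70 ± 0.18, adjusted p = 0.000128 and 0.00078). Trp53i11 had 19.3 and 22.3 coding TPM in WT and 88.4 and 99.6 in stabilized wells (2.21 ± 0.10). Unc5b, a netrin receptor, had 18.4 and 15.3 coding TPM in WT and 46.4 and 48.7 in stabilized wells (1.51 ± 0.08). Angpt2, an antagonist of the TIE2 receptor, Nid2 and Kcne3 passed as higher without being called. Plvap, which forms the diaphragms of fenestrae and caveolae, fell, by 0.45 on the log2 scale.

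Arterial genes split. Of 17 tested, 10 passed as higher, 6 of which were called, and 5 passed as lower, with a median of 0.99. Of all genes, 19.5% passed as higher, 1.08% were called higher and 17.6% passed as lower. Sema3g, an arterial semaphorin, rose from 5.03 and 6.16 to 26.0 and 31.5 coding TPM (log2 fold change 2.34 ± 0.14). Dll4, the Notch ligand of arterial and tip ECs, rose from 17.0 and 14.2 to 51.3 and 68.0 coding TPM (1.93 ± 0.14). The matrix protein gene Mgp, the elastic fibre gene Fbln5 and Gja5, the arterial connexin 40, rose by 1.75 ± 0.13, 1.54 ± 0.16 and 1.37 ± 0.12. The stabilized wells were above both WT wells in each of these genes, with stabilized replicate 4 the higher. In the other direction, Hey2 and Stmn2 fell by 0.72 and 0.93, and the ligands Jag1 and Efnb2 by 0.31 and 0.30. The Notch pathway list, which shares several of these genes, had 8 of 19 members higher and 4 lower with a median of 0.06. Its called members were Dll4 and the feedback gene Nrarp (1.36 ± 0.10), whose sequence overlaps an antisense gene, and the Notch target Hey1 passed as higher (1.09) while the receptor Notch2 passed as lower (-0.69). Of 12 venous genes 5 passed as higher and 4 as lower, with Vcam1, an adhesion receptor for leukocytes, called (1.40 ± 0.13) and the venous transcription factor Nr2f2 lower (-0.85).

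General endothelial genes were mostly higher. Of 21 tested, 14 passed as higher and Sox17 as lower, and the median log2 fold change was 0.46. The 4 called higher stand beside 1.08% of all genes, and the 14 beside 19.5%. With WT replicates 3 and 4 as controls, 9 passed as higher and 10 as lower, with a median of -0.19. Sox18, a transcription factor of endothelial differentiation, rose from 56.2 and 55.9 to 151 and 180 coding TPM (1.59 ± 0.06). Cd34, a sialomucin of ECs, rose from 122 and 135 to 304.5 and 338 coding TPM (1.25 ± 0.09). Cldn5, the main claudin of BBB tight junctions, rose from 227 and 272 to 463 and 553 coding TPM (1.04 ± 0.12), and Fli1, an ETS factor, by 1.01 ± 0.11. Pecam1 and Tie1 passed as higher by 0.69 each. Cdh5, Kdr and Emcn had differences of 0.10, -0.07 and -0.03 that were not past the test. The number called fell from 4 to 2 without WT replicate 5 or without stabilized replicate 4, as Cldn5 and Fli1 then changed by less than 2-fold. The summed coding TPM of the 21 genes was 6981 and 6876 in WT wells and 8260 and 8410 in stabilized wells. In bulk libraries such as these, a change in the share of a cell type and a change in RNA per cell cannot be told apart.

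Of the 29 tested BBB transporters and carriers, 16 passed as higher and 6 as lower, with a median of 0.29. Slco1a4, a carrier of organic anions, was the called member and rose from 15.6 and 19.7 to 53.1 and 51.2 coding TPM (1.37 ± 0.10), against 1630 and 1572 in acutely isolated ECs. The efflux pumps Abcg2 and Abcb1a passed as higher by 0.70 and 0.46, and the glucose transporter Slc2a1, the transferrin receptor Tfrc and the amino acid carrier subunit Slc3a2 passed as lower by 0.39, 0.23 and 0.58. Mfsd2a, the lipid carrier that limits transcytosis, had a difference of -0.09 that was not past the test. Among 20 genes for tight and adherens junctions, 10 passed as higher and 3 as lower. Ocln and Tjp1 rose by 0.66 and 0.59, whereas Cldn1, called lower, fell from 24.1 and 27.1 to 11.4 and 11.8 coding TPM (-1.20 ± 0.09).

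The study's own list of 279 BBB genes and its list of 154 genes shared by ECs of all organs were drawn from acutely isolated ECs, so their distance from acutely isolated ECs is not independent evidence. Of the 272 BBB genes tested, 133 passed as higher and 22 as lower, 16 were called higher and 1 lower, and the median was 0.23. Among all genes tested, 1.08% were called higher and 0.288% lower. With WT replicates 3 and 4 as controls, 139 BBB genes passed as higher and 93 as lower, with a median of 0.22. Of these, 55 were called higher and 22 lower, where 9.88% and 7.53% of all genes were called. Between the groups of method A, 125 passed as higher and 71 as lower. The median level of the BBB genes was 29.1 and 28.4 coding TPM in WT wells, 32.8 and 32.2 in stabilized wells, and 117 and 131 in acutely isolated ECs. The called BBB genes with the largest changes were Wfdc1, a secreted protease inhibitor (2.51 ± 0.09), Ly6c1 (1.62 ± 0.09), Tspan13 (1.59 ± 0.12), Slc16a4 (1.32 ± 0.09), Ly6a (1.32 ± 0.08) and Lmo7 (1.28 ± 0.05), and the BBB gene called lower was Pmaip1, which encodes the cell death protein NOXA (-1.17 ± 0.08). Ly6a and Ly6c1 share sequence with their relatives. Of the 154 shared EC genes, 87 passed as higher and 10 as lower with a median of 0.31. With WT replicates 3 and 4 as controls, 67 of them passed as higher and 64 as lower, with a median of 0.06. Called members included Dll4, Sox18, the ephrin Efna1 (1.46 ± 0.10), the GTPase Gimap4 (1.45 ± 0.11), the angiogenesis inhibitor Vash1 (1.43 ± 0.17) and the protocadherin Pcdh12 (1.30 ± 0.07) as higher, and Smad7, an inhibitor of TGF-beta signaling, as lower (-1.02 ± 0.13).

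Sema3f (chr9:107681500-107710475, minus strand), a secreted semaphorin that repels axons and ECs through neuropilin 2, rose. It had 23.9 and 26.1 coding TPM in the WT wells and 66.7 and 65.9 in the stabilized wells, with very little spread inside either group (log2 fold change 1.43 ± 0.05, adjusted p = 0.00034). The WT wells of method A had 105 and 123 coding TPM and WT replicates 3 and 4 had 51.2 and 47.4. The stabilized mean lay inside the range of these other WT cultures, and WT replicates 5 and 6 lay below it. Sema3f is 1 of 38 tested axon guidance ligands and receptors, of which 13 passed as higher and 9 as lower, with a median of -0.03. Of the 38, 6 were called higher and 1 lower, against 1.08% and 0.288% of all genes. Besides Sema3f, Sema3g and Unc5b, the called members were Efna1, the UNC5B ligand Ntn1 (1.13 ± 0.10) and the semaphorin receptor Plxnd1 (1.05). Plxnd1 is outside the rule for named genes and was added after its value was seen, as the one called member left. Sema3e, the ligand of PLXND1, was called lower, from 26.5 and 26.6 to 14.5 and 12.1 coding TPM (-1.05 ± 0.08), and Sema3a, Sema3c, Sema3d and Nrp2 passed as lower by 0.30, 0.55, 0.88 and 0.46. Class 3 semaphorins went in both directions.

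All 22 genes of the mitosis list passed the test as higher, with log2 fold changes from 0.55 to 1.51 and a median of 1.08. Top2a, the topoisomerase of mitotic chromosomes, rose from 6.80 and 5.60 to 15.6 and 19.0 coding TPM (1.35 ± 0.08). Cdk1, the kinase that starts mitosis, rose from 10.3 and 10.9 to 24.0 and 33.1 coding TPM (1.39 ± 0.15). Ube2c, a ubiquitin-conjugating enzyme of mitotic exit, rose by 1.23 ± 0.18. The proliferation antigen Mki67 and the cyclin Ccnb2 rose by 1.51 and 1.50 without reaching the TPM minimum. Of 20 DNA replication genes, 15 passed as higher and 0 as lower, with a median of 0.42. The licensing factors Cdc6 and Cdc45 rose by 1.26 and 1.18, whereas the difference of Pcna, the sliding clamp, was 0.11 and not past the test. When the 150-cycle WT replicates 3 and 4 served as controls, 5 mitosis genes passed as higher and 15 as lower, with a median of -0.84, and the DNA replication genes had a median of -0.75. In that comparison 38.3% of all genes passed as higher and 37.4% as lower.

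Interferon-stimulated genes were higher too. Of 28 tested, 20 passed as higher, only the chemokine gene Cxcl10 passed as lower (-1.50), and the median was 0.67. None was called. Rsad2, which encodes the antiviral enzyme viperin, rose by 2.53, Gbp3 by 1.02 and the sensor Ifih1 by 0.66. Of 16 genes for MHC class I antigen presentation, 11 passed as higher and 0 as lower, with a median of 0.41. The immunoproteasome subunits Psmb9, Psmb10 and Psmb8 rose by 1.01, 0.96 and 0.75 and the class I heavy chain H2-K1 by 0.91, while B2m, the light chain, had a difference of 0.15 that was not past the test. H2-T23 was the called member (1.04 ± 0.11), and was not called without WT replicate 5 or without stabilized replicate 4. Both lists also changed sides with WT replicates 3 and 4 as controls, with medians of -0.34 and -0.43.

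Genes of glycolysis and the hypoxia response were mostly lower. Of 25 tested, 19 passed as lower and 1 as higher, with a median of -0.33. The growth factor gene Vegfa was called and fell from 20.3 and 19.1 to 8.41 and 11.0 coding TPM (-1.06 ± 0.09). Ldha, which encodes lactate dehydrogenase A, Hk2, hexokinase 2, and Pgk1 fell by 0.65, 0.95 and 0.48, whereas the stress gene Ndrg1 was called higher (1.11 ± 0.08). With WT replicates 3 and 4 as controls, 9 passed as higher and 6 as lower. Of 16 targets and parts of the YAP and TEAD pathway, 8 passed as lower and 2 as higher. With WT replicates 3 and 4 as controls, 11 passed as higher and 3 as lower, with a median of 0.73. The receptor kinase Axl fell from 123 and 103 to 54.3 and 56.1 coding TPM (-1.05 ± 0.09). Tead1 was called lower, but its WT wells were unequal, at 101 and 47.7 coding TPM, against 38.2 and 31.6 in stabilized wells (-1.11 ± 0.33, adjusted p = 0.0448). It did not pass without stabilized replicate 3 or 4 (adjusted p = 0.159 and 0.217), and without WT replicate 5 neither Axl (-0.92) nor Tead1 (-0.45) was called.

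**Figure D3:**
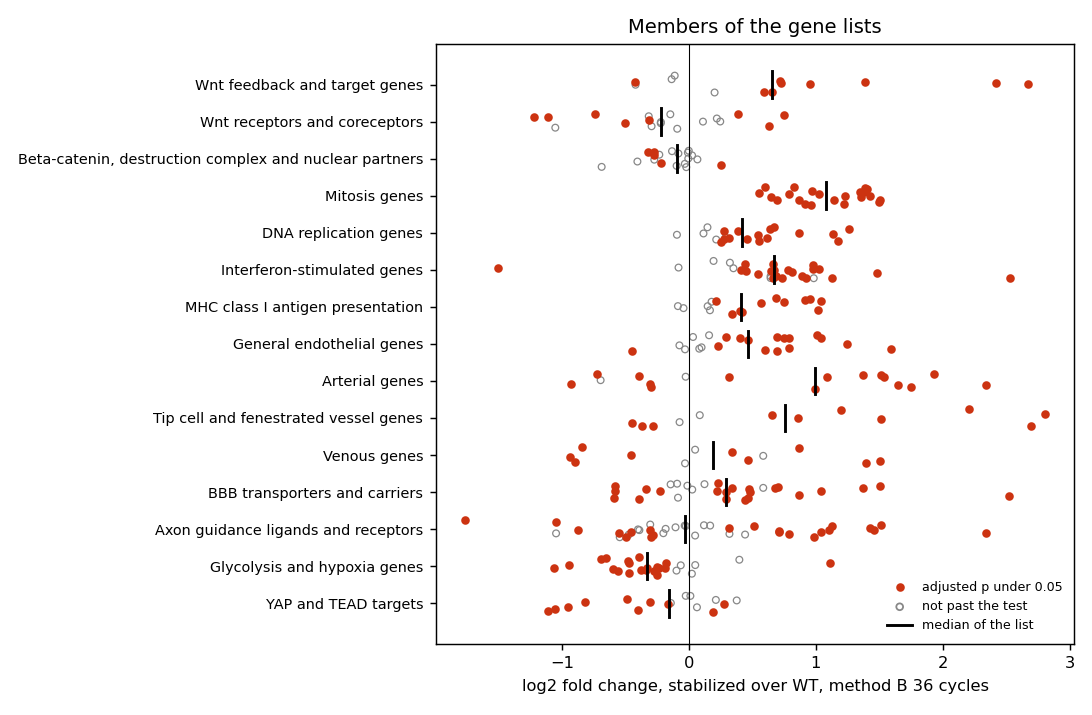
Log2 fold change of each tested member of 15 gene lists, stabilized over WT wells, with filled points for members at an adjusted p under 0.05, open points for the others and a bar at the median of each list. All mitosis genes lie to the right of 0 and most glycolysis and hypoxia genes to the left, while arterial and axon guidance genes spread to both sides.

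Among the 37 genes called lower, the largest decrease was that of Myl7, an atrial myosin light chain, from 14.9 and 12.1 to 2.54 and 2.40 coding TPM (-2.47 ± 0.20). H2-M9, a class I gene outside the presentation list, fell from 31.6 and 33.3 to 9.60 and 10.0 coding TPM (-1.79 ± 0.08). Inhba, which encodes the activin A subunit, fell from 14.8 and 13.5 to 5.58 and 5.37 coding TPM (-1.42 ± 0.06). The wells of a group were close to each other in all these genes and the groups did not overlap. The epithelial keratin gene Krt19, the neurotrophin gene Bdnf, the serotonin receptor gene Htr1b and the atypical cadherin gene Fat1 fell by 1.40, 1.31, 1.30 and 1.29. Within the 28 tested BMP and TGF-beta genes, 8 passed as higher and 9 as lower with a median of -0.13: Inhba and Smad7 were called lower and the ligand Bmp6 higher (1.19 ± 0.06), and the receptors Tgfbr2 and Tgfbr3 passed as higher by 0.82 and 0.99. Other called members of the lists were the growth factor Ereg (-1.09 ± 0.06) and the stress factor Ddit3, or CHOP (-1.17 ± 0.07), as lower.

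Further large increases were in genes outside these lists. Fbp1, the gluconeogenic fructose bisphosphatase, had 5.43 and 7.23 coding TPM in WT and 29.5 and 40.5 in stabilized wells (2.32 ± 0.16). Kank4 had 3.78 and 3.71 in WT and 18.7 and 18.4 in stabilized wells, with a very narrow spread (2.28 ± 0.06). Gda, the guanine deaminase, Clu, the chaperone clusterin, and Cpm, a membrane carboxypeptidase, rose by 2.26 ± 0.16, 2.20 ± 0.11 and 2.01 ± 0.06.

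Some called genes have near-identical copies to which the authors' quantification could have assigned reads. Counted in words of 31 bases, 19 of the 139 genes called higher and 10 of the 37 called lower shared at least 25% of their words with another gene, and without such genes 120 and 27 were called. Rps2, a ribosomal protein, had by far the largest increase of the called genes, from 355 and 531 to 37933 and 38334 counts, while its pseudogene Rps2-ps10 went from 86158 and 129117 to 59838 and 60528. The log2 difference was 6.26 for Rps2 alone and -0.30 for their sum. Likewise, the log2 difference of Gm11361 summed with Rps18 was 0.06, that of mt-Co2 summed with the pseudogene Gm28661 was 0.04, and that of Gvin1 summed with Gm4070 was -0.52. Summing with the gene that shares most words took the log2 difference of the histone gene Hist1h2af from 2.19 to 1.10, that of Hist1h4i from -1.29 to -0.47 and that of the AP-1 gene Fosl1, which overlaps Ccdc85b, from -1.09 to -0.22. The sums left H2-T23 at 1.05 and Gm5152 at -1.60, as without their partners.

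Markers of other cell types were measured in the same libraries. Smooth muscle markers summed to 7550 and 7085 coding TPM in WT wells and 6487 and 6082 in stabilized wells, and 4 of the 8 passed as lower. These sums were larger than in the other cultures, at 1557 and 1078 in WT and 761.5 and 869.8 in stabilized wells of method A and 2310 and 2149 in WT replicates 3 and 4. Acutely isolated ECs had 616 and 434. Pericyte markers were low at 34.8 and 30.5 against 21.1 and 26.5, with 2 of 8 tested lower. Fibroblast markers summed to 55.7 and 39.3 against 43.3 and 39.5 coding TPM (Dpt and Slc6a13 without counts), and microglia and macrophage markers to 103 and 108.5 against 113 and 117 (C1qb without counts). Neuron markers summed to 23.5 and 20.0 against 12.4 and 10.9 coding TPM, astrocyte markers to 26.1 and 25.1 against 27.2 and 29.1, oligodendrocyte markers to 15.97 and 15.94 against 22.8 and 24.9 (Mog and Olig2 without counts), choroid plexus and ependymal markers to 38.3 and 37.5 against 54.1 and 56.99, lymphatic EC markers to 106 and 88.6 against 144.5 and 123, and erythrocyte markers to at most 2.45. Their part in the changes above was not tested.

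The 4 other WT cultures of the series, of which replicates 1 and 2 were isolated by method A from C57BL/6J mice and replicates 3 and 4 are the 150-cycle libraries of method B, show where the 2 groups lie. The genes were called from WT replicates 5 and 6 themselves, so an extreme position of those wells is partly fixed by the choice. For the 139 genes called higher, the mean of WT replicates 5 and 6 was below the range of the 4 other WT cultures in 114 (82.0%), against 26.8% of all genes tested. The stabilized mean was inside that range in 73, below it in 57 and above it in 9, which were Esm1, Cxcr4, Fbp1, Ly6c2, Bst1, Htra1, Ptpn22, Pcdh12 and Abcg1. For the 37 genes called lower, the WT mean was above that range in 28, against 24.7% of all genes, and the stabilized mean was inside it in 17, above it in 16 and below it in 4, which were Itprip, Fbln2, Perp and mt-Co2. Among these 13 genes, those that no other rule names are given because the count is small. The stabilized mean was inside the range in 52.5% of the genes called higher and 45.95% of those called lower, against 56.5% of all genes tested. Of all genes it was below the range in 22.7% and above it in 20.8%. The share inside was thus not larger among called genes than among all genes. For most called genes the stabilized mean was inside the range or between it and WT replicates 5 and 6. The choice of the genes partly fixes this position. Relative to WT replicates 5 and 6, the median log2 level of the 139 genes was 1.27 and 1.45 in the stabilized wells, 2.11 and 2.14 in the WT wells of method A and 1.75 and 1.66 in the WT wells of 150 cycles.

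**Figure D4:**
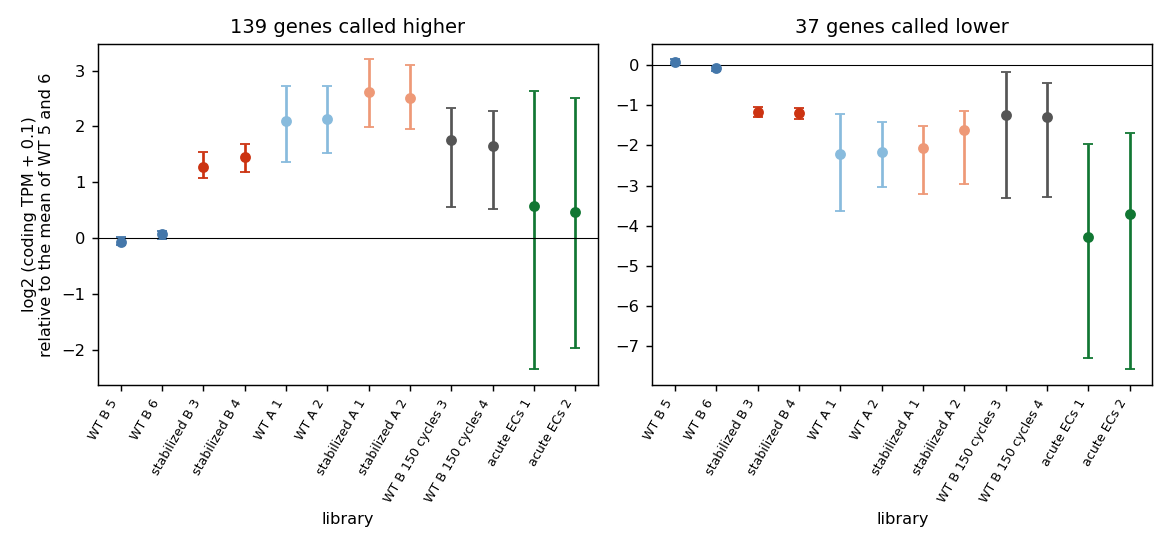
Median (points) and quartiles (bars) over the 139 genes called higher and the 37 called lower of log2 (coding TPM + 0.1) in each library, relative to the mean of WT replicates 5 and 6. On the left the stabilized wells of method B, at 1.27 and 1.45, lie between WT replicates 5 and 6 near 0 and the WT wells of method A at 2.11 and 2.14.

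With the 150-cycle WT replicates 3 and 4 as controls for the same stabilized wells, 9.88% of 12944 genes were called higher and 7.53% lower, and the medians of 40 of 46 gene lists moved by more than the median SE of their members. That comparison shares the stabilized libraries with the main one, and its controls differ in read length as well as in preparation. Protein-coding genes held 94.85% and 94.72% of the deposited TPM in these controls. The TPM minimum for genes called lower is therefore at a smaller coding TPM there than in the main comparison. These controls also differ in sex-linked genes, with 0 counts of Xist and 2940 to 3328 of Ddx3y. The stabilized wells held 2805 to 2839 counts of Xist and 0 of Ddx3y. Sex, read length, preparation and genotype cannot be told apart there. Of the 139 genes called higher, 32 were again called higher and 31 were called lower, and of the 37 called lower 6 were again called lower and 8 were called higher. Sema3f was higher by 0.30 and no longer called, and Cxcr4 by 0.32. Axin2 and Esm1 were higher by 5.37 and 2.82, whereas Dll4, Sox18 and Cd34 were lower by 1.44, 1.50 and 0.73. These fold changes come from counts without a transcript length offset, although read length differs. In coding TPM, Axin2 was alike in the 2 WT pairs, at 0.284 and 0.222 in replicates 3 and 4 and 0.246 and 0.268 in replicates 5 and 6. With all 4 WT wells of method B, replicates 3 to 6, as controls, 1 gene was called, Esm1 (2.82, adjusted p = 0.0140), and Axin2, higher by 3.47, was not past the test (adjusted p = 0.476).

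Method A gave a separate comparison of stabilized and WT cultures that shares no library with method B. There, 813 of 12860 genes were called (6.32%), 693 higher (5.39%) and 120 lower (0.933%), and 56% of genes passed the test in either direction. Protein-coding genes held 61.55% and 64.97% of the deposited TPM in the stabilized wells of method A, against 39.7% and 37.34% in those of method B. In the WT wells of method A they held 36.3% and 47%. The TPM minimum for a call is thus at unlike coding TPM between methods and directions, and numbers of calls are not compared at the same threshold. Of the 139 genes called higher in method B, 28 were called higher in method A, which is 20.1% of the first list and 4.04% of the second, 67 passed the test in the same direction and 33 in the opposite one, where 29.2% of all genes passed as higher and 26.7% as lower. Of the 37 called lower, 1 was called lower in method A, and 8 passed in the same direction and 6 in the opposite one, with 34 tested. The difference between the methods was itself tested, and it passed for 6623 of 13369 genes (49.5%) and for 119 of the 139 and 23 of the 37. The called genes were chosen by their change in method B, which enters this difference. Their shares are thus partly fixed by the choice and are not evidence that called genes differ more than others. In method A the WT controls were of another strain, C57BL/6J, without the floxed allele and the Tie2-GFP transgene. The wording of the study does not make clear whether they received 4HT. They held 2512 and 4306 counts of Xist as well as 1367 and 2328 of Ddx3y, whereas the stabilized wells held at most 2 of Xist. Strain, sex, genotype and possibly 4HT treatment cannot be told apart there.

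Axin2 rose in both methods, by 2.67 in B and 2.95 in A on the log2 scale, and the difference of -0.26 ± 0.28 was not past the test (adjusted p = 0.459). Ccnd1 rose by 0.73 and 0.85, Dll4 by 1.93 and 1.66, the transcription factor Hlx by 1.69 and 1.83, the receptor kinase Kit by 1.63 and 1.79, the phosphatase Ptpn22 by 1.45 and 1.35 and the desaturase Scd2 by 1.31 and 1.70, with no difference past the test, and the p53 effector Perp fell by 1.16 and 1.15. Dll4, Hlx, Kit, Ptpn22 and Perp were named because they were called in the same direction in both methods. Their likeness is thus partly fixed by the choice. Other genes were called higher in both methods with different sizes: Fbp1 rose by 2.32 in B and 6.67 in A, the peroxidase Gpx3 by 1.32 and 3.08, the scavenger receptor Ackr3 by 1.56 and 2.08, Cxcr4 by 2.70 and 1.90 and Esm1 by 2.81 and 1.09. Wnt genes differed between the methods in both directions. Tcf7 rose by 0.72 in B and 2.39 in A, Apcdd1 by 0.66 and 1.36, and Nkd1 by 0.59 and 1.25. Lef1 and Myc, which were not higher in B, rose by 1.56 and 1.65 in A, and these differences passed the test. Spock2, Tnfrsf19 and Notum had smaller changes in A, of 0.34, 0.48 and 0.12, than in B, of 1.39, 0.96 and 2.42, and these differences passed too. In A, 11 of the 13 tested Wnt genes passed as higher, with a median of 1.07. Sema3f rose by 1.43 in B and 0.59 in A, and Sema3g, which rose by 2.34 in B, fell by 0.33 in A. The mitosis, interferon and arterial lists, which were higher in B, were not so in A. There, 6 mitosis genes passed as higher and 7 as lower with a median of -0.19, and interferon-stimulated genes had 3 higher and 15 lower with a median of -0.38. Arterial genes had a median of -0.30 in A.

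**Figure D5:**
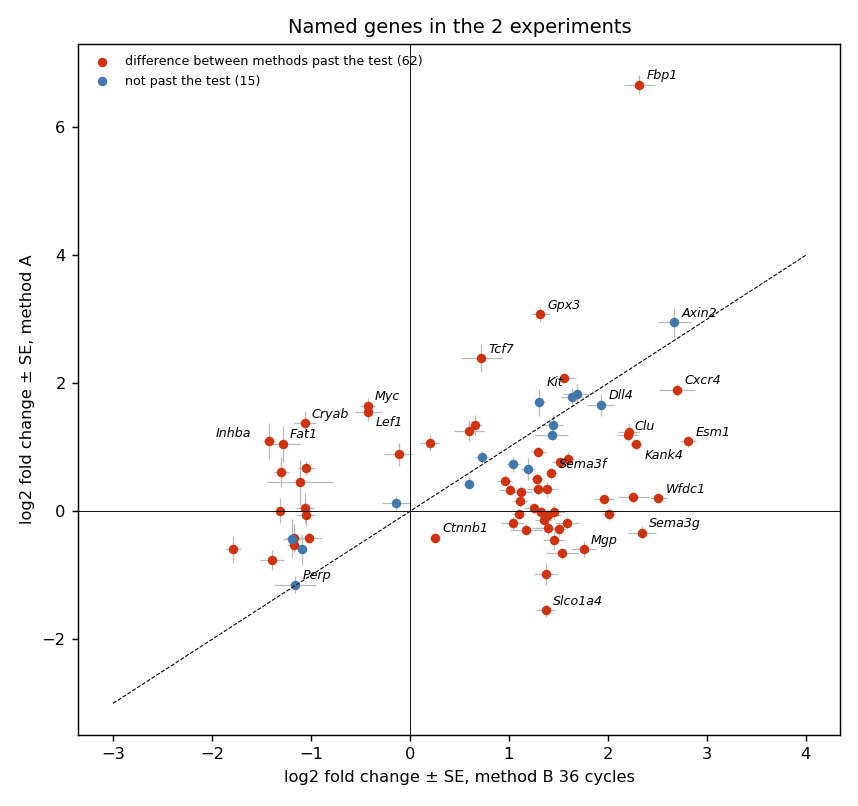
Log2 fold change with stabilization in method A against that in method B for 77 named genes tested in both and sharing under 25% of their words, with SE bars and a dashed line of equality; colour tells whether the difference between methods passed the test (62 genes) or not (15 genes). Axin2, Dll4, Kit and Perp lie near the line, while Slco1a4, Sema3g, Mgp, Cryab and Fat1 lie across an axis from it. Many of the genes were named for their change in method B, which enters the tested difference, and some because they were called in the same direction in both methods.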

How the data were processed

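RNA-seq was analysed in 4 libraries of cultured brain ECs, grouped by their titles and genotypes, and the other RNA-seq libraries were used for the comparisons named. The authors quantified reads with Salmon 0.14.0 on GENCODE M21 transcripts, and the deposited files hold an estimated count and a TPM value per transcript. Both were summed over the transcripts of 54393 genes, the estimated counts were rounded, and the 21847 protein-coding genes were kept. TPM was also rescaled to a sum of 1000000 over protein-coding genes.

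On the 4 libraries alone, low counts were removed by filterByExpr and libraries were scaled by TMM, and the quasi-likelihood F-test of edgeR 4.0.16 (R 4.3.3) was run with Benjamini-Hochberg adjustment over the 12847 genes left. Calls needed an adjusted p under 0.05, a fold change over 2 and a deposited TPM of at least 5 in both libraries of the higher group. Method A was fitted in the same way, and the difference between methods as an interaction term on 8 libraries. Each SE is the absolute log2 change divided by the square root of F. Depth was 43240857 to 65623544 counts, and wells of a group differed by more than counting error (mean chi-square per gene 33.6 in WT and 8.08 in stabilized wells). The medians were far smaller, at 2.93 and 1.50. The scripts were tested on simulated data. Alternatives included DESeq2 1.42.0 and limma 3.58.1 on log2(TPM + 0.5) and log2(TPM + 1).

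Named genes were Axin2, Sema3f, Ctnnb1 and Pdgfb, the 12 called genes with the largest change in each direction, up to 6 called members of each of 47 lists and all tested Wnt targets, the 8 called alike in both methods with the largest smaller change, those called with opposite signs, and up to 6 of each list of the study. Members, lists and rules were chosen with earlier results of these data known. Coordinates are GRCm38 (mm10 in the submitters' notes). P-values measure the spread between wells, which may be technical. The authors' comparisons were not used.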

Additional observations from a re-analysis of the deposited data

Results flagged for a closer look

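Each result here is a change with stabilization that differed between method B and method A by a test of the difference itself. The genes named were chosen because they were called with opposite signs in the methods and passed this test. Their passing is therefore not separate evidence. The organic anion carrier gene Slco1a4 was called higher in method B (log2 fold change 1.37) and lower in method A (-1.55), a difference of 2.94 ± 0.16 (adjusted p = 2.31e-05). In acutely isolated ECs it had 1630 and 1572 coding TPM, and in the cultures it lay between 15.6 and 194, with the lowest level in WT replicate 5 and the highest in WT replicate 2. The small heat shock protein gene Cryab was called lower in method B (-1.06) and higher in method A (1.37), a difference of -2.41 (adjusted p = 0.000193). The atypical cadherin gene Fat1 was called lower in method B (-1.29) and higher in method A (1.06), a difference of -2.32 (adjusted p = 0.00142), and its stabilized wells of method A were unequal at 9.54 and 18.7 coding TPM. Of 13369 genes tested, 6623 had a difference between the methods past the test. The WT wells of method A came from C57BL/6J mice and those of method B from Ctnnb1flex3/+;Tie2-GFP mice. Counts of Xist and Ddx3y also differed between the methods and, in method A, between the groups. Strain, sex and isolation method therefore cannot be told apart. With 2 wells per group, no test for a well that stands apart from its group could be made.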

How the results depend on the processing

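The 176 calls in method B (139 higher, 37 lower) stayed between 129 and 187 in number under other size factors, a transcript length offset, no filter on low counts, DESeq2, limma and fits with more libraries, except that limma on log2(TPM + 1) called 84 higher. Without the TPM minimum 738 genes were called (517 higher, 221 lower) and without the fold minimum 3165 (1482 and 1683). A minimum on rescaled TPM, chosen after seeing the data, gave 267 (209 and 58). Leaving out 1 library gave 152 to 233 genes, 121 to 161 higher and 31 to 72 lower, with 72 lower when WT replicate 6 was left out. The lone well is then assumed to vary like the other group. In method A such fits gave 628 to 1084 genes, 521 to 888 higher and 107 to 196 lower, with 196 lower without WT replicate 2, and the difference between methods passed for 5083 to 6650 genes.

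No paired analysis was possible for method B because its groups share no replicate numbers. In method A, a fit with the replicate number as a block called 701 higher and 119 lower (820 in all, against 813 without it). The wells share only a number, as the differences between replicates 1 and 2 correlated at 0.07 across genes between the groups.

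The choice of controls mattered most, and the cause was not tested. With WT replicates 3 and 4 as controls, 2254 genes were called (1279 higher, 975 lower), with the TPM minimum for genes called lower at a smaller coding TPM. With WT replicates 3 to 6, 1 was called (1 higher, 0 lower). Only 65 genes (52 higher, 13 lower) also passed in the same direction with WT replicates 3 and 4, a restriction chosen after seeing the data, as was the removal of genes with near copies (120 higher, 27 lower). Of the 92 named genes, 42 reversed with WT replicates 3 and 4 as controls, 39 of them past the test. The log2 differences were Wfdc1 -0.99, Trp53i11 -2.93, Cldn5 -0.19, Sox18 -1.50, Cd34 -0.73, Fli1 -0.57, Dll4 -1.44, Fbln5 -2.14, Vcam1 -1.002, Nrarp -0.69, Bmp6 -0.28, Efna1 -1.07, Angptl4 -0.23, Cdk1 -0.94, Ube2c -2.02, Cdkn2b -0.64, H2-T23 -0.59, Scd2 -0.48, Ndrg1 -0.56, Ly6c1 -1.63, Tspan13 -1.75, Ly6a -1.87, Tcf7 -0.30, Hlx -1.25, Kit -2.26, Ackr3 -2.15 and Gpx3 -2.21 among genes higher in the main comparison, and H2-M9 2.61, Gm5152 3.64, Gvin1 3.12, Inhba 0.97, Gm11361 8.01, Bdnf 2.60, Htr1b 1.45, Hist1h4i 3.45, Fat1 5.30, Smad7 1.51, Vegfa 0.24, Ereg 0.56, Tead1 2.77, Ddit3 0.53 and Pmaip1 1.73 among genes lower in it. With WT replicates 3 to 6 as controls, 18 reversed, and in each the adjusted p was above 0.05. The log2 differences were Wfdc1 -0.11, Trp53i11 -1.97, Sox18 -0.66, Cd34 -0.052, Dll4 -0.58, Fbln5 -1.25, Vcam1 -0.25, Nrarp -0.003, Efna1 -0.30, Cdk1 -0.20, Ube2c -1.17, Ly6c1 -0.77, Tspan13 -0.88, Ly6a -1.02, Hlx -0.42, Kit -1.35, Ackr3 -1.26 and Gpx3 -1.33. Under the other alternatives no named gene that had passed the test reversed.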

Other observations

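Among other gene groups of the same libraries, genes of cholesterol and fatty acid synthesis passed as higher in 16 of 25 and as lower in 0, with a median log2 fold change of 0.26, led by the desaturase gene Scd2, which rose from 17.4 and 17.0 to 41.6 and 44.4 coding TPM (1.31 ± 0.06). Dhcr7, which encodes an enzyme late in cholesterol synthesis, rose by 0.68. Of 36 genes for basement membrane and matricellular proteins, 14 passed as higher and 9 as lower with a median of 0.003, and Mgp, Sparcl1 (1.50 ± 0.07) and the multimerin gene Mmrn2 (1.10 ± 0.07) were called higher. Sparcl1 had 23.4 and 26.1 coding TPM in WT wells, 69.3 and 73.7 in stabilized wells and 2098 and 2924 in acutely isolated ECs. Of 24 matrix proteases and inhibitors, 9 passed as higher and 3 as lower, among them Plat, the tissue plasminogen activator, which rose from 7.61 and 7.92 to 28.5 and 33.5 coding TPM (1.96 ± 0.10), and the protease gene Adamts9 (1.04 ± 0.06).

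Collagens had 5 higher and 5 lower of 22, mesenchymal transition factors 2 and 5 of 12, growth factors for mural and other cells 3 and 7 of 17, CDK inhibitors and p53 targets 3 and 4 of 16 with Cdkn2b called higher (1.18 ± 0.16), immediate early and AP-1 genes 3 and 4 of 17, flow-responsive genes 4 and 3 of 12, and genes of the ATF4 and unfolded protein response 3 and 5 of 20. The VEGF and angiopoietin system had 6 higher and 3 lower of 14, with Angptl4, an inhibitor of lipoprotein lipase, called higher (1.30 ± 0.12). Leukocyte adhesion genes and chemokines had 8 and 3 of 20, caveolar genes 3 and 2 of 9, NRF2 targets and metallothioneins 6 and 2 of 14, coagulation and fibrinolysis genes 5 and 4 of 15, and IGF-binding proteins 3 and 0 of 6. The medians of these lists lay between -0.24 and 0.54, beside -0.01 for all genes.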
